A study of Mus musculus with 12 samples.

Results

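Wild-type (WT) mouse lung was compared with WT mouse spleen in 6 RNA-seq libraries, 3 of each tissue, out of 12 in the study. The members were fixed by their labels: every library of the WT lung and WT spleen groups. Lung 1 and spleen 1 were taken as the same mouse, and so on, by the numbers in the titles. The WT animals were purchased C57BL/6 mice, 8 to 10 weeks old, with no treatment given in the labels. The other 6 libraries came from lungs and spleens of 3 mice without integrin β3 (b3 KO, from a separate C57BL/6 stock), and are used here only to set the same tissue difference beside the WT one. Each value is an FPKM, a fragment count scaled for gene length and for library size. Of 22116 genes listed in both tissues, 15815 had at least 0.1 FPKM in at least 3 of the 6 WT libraries and were tested, and 3903 were listed at 0 in all 6.

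The lung is lined by airway and alveolar epithelium. Alveolar type 2 cells make surfactant, flat type 1 cells form the surface for gas exchange, and a dense capillary network lies against them. The spleen has no such epithelium. Its white pulp holds B cell follicles and T cell zones built on chemokine-producing stroma, and its red pulp filters blood, with macrophages that break down old red cells and return their iron. In the mouse the red pulp also makes red cells and platelets throughout life.

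A difference is given below as log2(FPKM + 0.1) in lung minus that in spleen, averaged over the 3 mice, with its standard error, so a negative value means a higher level in spleen. Genes were called different when this exceeded 1 in size with a Benjamini-Hochberg adjusted p below 0.05 in limma with the mouse as a block. For one gene alone, 3 mice allow no exact p below 0.25 when signs are permuted, so every test here is that of the fit across all genes. Called higher in lung were 3653 genes (23.1% of those tested), and 3050 (19.3%) were called higher in spleen, 42.4% together. Among the called genes, 6631 of 6703 had no overlap between the lung and spleen libraries, beside 77.1% of all tested genes without overlap. More genes passed 8-fold in lung, 1150 against 587 in spleen. The median difference over all tested genes was -0.10. Lung and spleen tables were made separately by the study, so a level set across them carries that limit throughout, and in bulk tissue fewer cells of a type and less RNA per cell cannot be told apart.

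**Figure D1:**
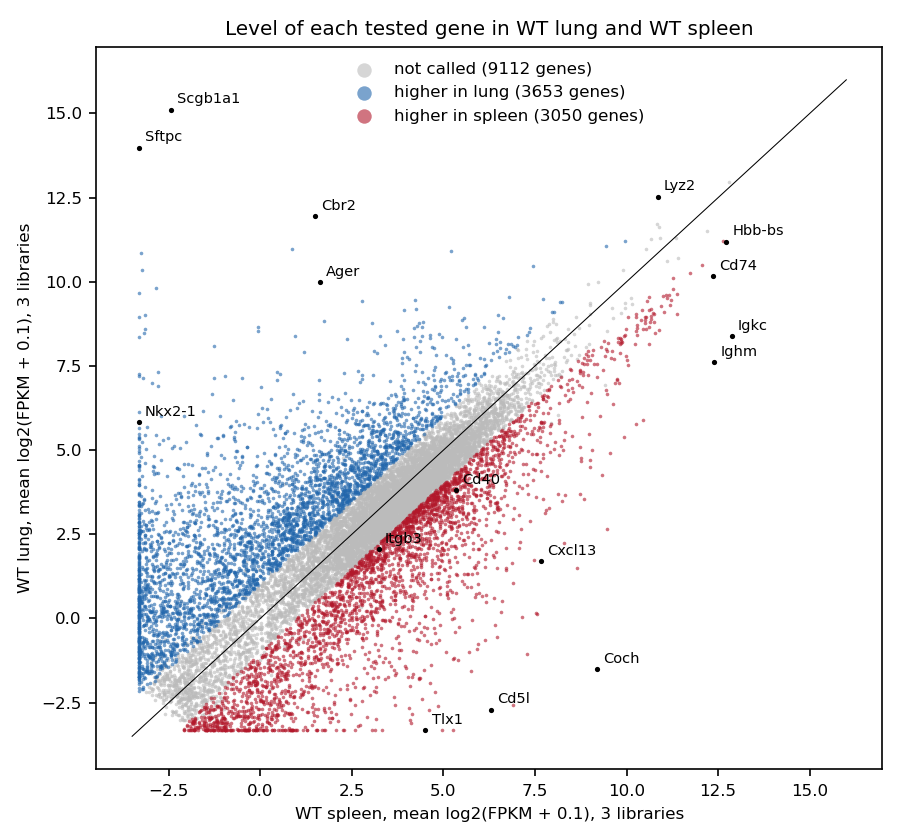
Each point is 1 of 15815 tested genes, placed by its mean log2(FPKM + 0.1) over 3 WT spleen libraries (horizontal) and 3 WT lung libraries (vertical), with the line of equal level. Blue points (3653) were called higher in lung and red points (3050) higher in spleen; the columns and rows of points at the lowest values are genes listed at 0 in every library of a tissue.

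The libraries grouped by tissue. Pearson correlations of log2 values were 0.961 to 0.978 within lung, 0.977 to 0.985 within spleen and 0.694 to 0.753 across tissues. The markers of the labelled tissues stood where the labels put them. Sftpc of type 2 cells and the lung epithelial factor Nkx2-1 were listed at 0 in all spleens, and Tlx1, a factor needed to form the spleen, was listed at 0 in all lungs. Some libraries stood apart. The lung of mouse 3 had 4.61 FPKM of the ubiquitin gene Ubb, against 569.9 and 688 in the other lungs, and 615.6 summed FPKM over 12 cardiac genes, against 126.2 and 83.7. The lung of mouse 2 had the lowest airway genes, the spleen of mouse 2 carried pancreatic genes (2715 summed FPKM, against 24.8 and 20.8 in the other spleens), and the spleen of mouse 1 had the highest red cell precursor genes. Depth could not be recovered from these values, so no counting interval is given.

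**Figure D2:**
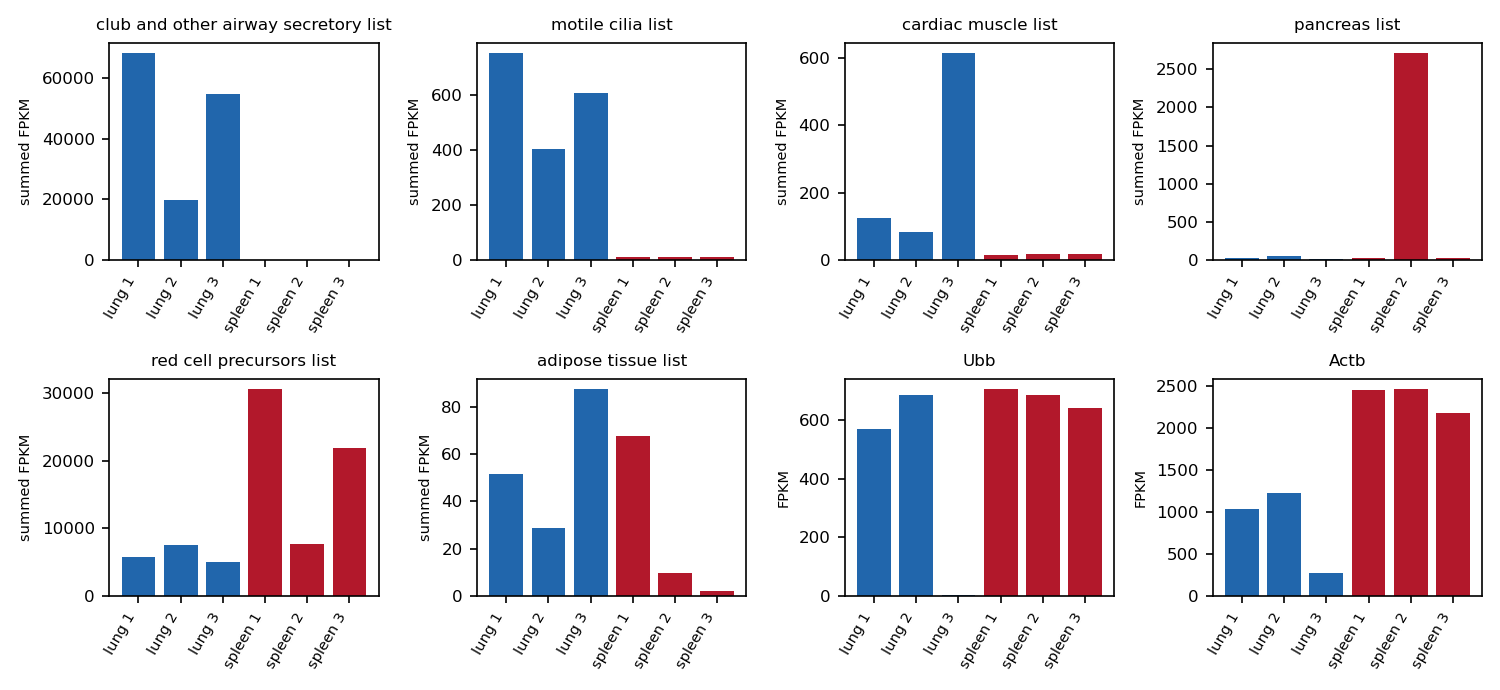
Bars give, for each of the 6 WT libraries (lung blue, spleen red), the summed FPKM of 6 gene lists and the FPKM of Ubb and Actb, each panel on its own linear axis from 0. Lung 3 is high for cardiac genes and low for Ubb, spleen 2 is high for pancreatic genes (2715), and spleen 1 is highest for red cell precursors (30665).

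Genes of alveolar epithelium were among those with the largest lung differences. Of 20 type 1 cell genes tested, all 20 were called higher in lung, with a median difference of 6.34, and 17 of 21 type 2 cell genes were, with a median of 5.77 and none higher in spleen. Sftpc, the surfactant protein made by type 2 cells alone, had 13053, 23093 and 14167 FPKM in lungs 1 to 3 and was listed at 0 in each spleen. Sftpb, needed for surfactant to spread, had 1591, 2227 and 1749 FPKM in lung and 0, 0 and 0.0143 in spleen (14.10 ± 0.13, adjusted p = 1.04e-06). The lungs lay far above the spleens in each mouse. Sftpa1, a surfactant collectin that binds microbes, had 1203, 1501 and 1263 FPKM in lung and 0, 0 and 0.0191 in spleen (13.60 ± 0.12, adjusted p = 1.04e-06). The phosphate transporter Slc34a2 had 458, 564 and 528 in lung and 0, 0.0255 and 0.0133 in spleen (12.16 ± 0.10, adjusted p = 1.04e-06). Both were at or near 0 in every spleen, whereas some type 1 genes were not. Ager, the receptor RAGE that type 1 cells hold in large amount, had 834, 1242 and 998 FPKM in lung and 2.10, 3.98 and 3.17 in spleen (8.36 ± 0.09, adjusted p = 1.62e-06). Aqp5, a water channel of the alveolar surface, had 118, 166 and 139 in lung and 0, 0.0296 and 0 in spleen (10.33 ± 0.14, adjusted p = 3.02e-06). Of the members not called, Ctsh, a lysosomal protease, had 173, 167 and 186 in lung and 214, 198 and 189 in spleen (-0.19 ± 0.10, adjusted p = 0.124), and Scd1, a fatty acid desaturase, had 287, 207 and 288 and 151, 118 and 122 (0.99 ± 0.11, adjusted p = 0.000671), just under the fold limit.

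Promoters of genes from this contrast are shown because surfactant genes are known targets of NKX2-1, whose binding sites hold the letters CTCAAG. Each is the 250 bases before the RefSeq start (RefSeq windows for GRCm38.p6, each found once, unchanged, in GRCm39), written 5′ to 3′ on the gene's strand with exact matches of CTCAAG in capitals. Sftpb lies at chr6:72281344-72281593 on the plus strand and Sftpa1 at chr14:40853495-40853744 on the plus strand. Cd79a, a B cell receptor subunit, at chr7:24596672-24596921 on the plus strand, is set beside them because it too holds the letters although it was called higher in spleen.
Sftpb: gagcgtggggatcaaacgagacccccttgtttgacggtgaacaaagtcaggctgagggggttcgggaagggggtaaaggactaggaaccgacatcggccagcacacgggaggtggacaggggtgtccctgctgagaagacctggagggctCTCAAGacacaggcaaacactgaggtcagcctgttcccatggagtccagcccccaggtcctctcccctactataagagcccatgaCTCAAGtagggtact
Sftpa1: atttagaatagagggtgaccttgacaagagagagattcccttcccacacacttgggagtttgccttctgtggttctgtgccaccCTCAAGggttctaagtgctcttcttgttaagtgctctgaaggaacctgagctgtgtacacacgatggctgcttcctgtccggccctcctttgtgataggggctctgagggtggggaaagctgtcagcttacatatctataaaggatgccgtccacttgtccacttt
Cd79a: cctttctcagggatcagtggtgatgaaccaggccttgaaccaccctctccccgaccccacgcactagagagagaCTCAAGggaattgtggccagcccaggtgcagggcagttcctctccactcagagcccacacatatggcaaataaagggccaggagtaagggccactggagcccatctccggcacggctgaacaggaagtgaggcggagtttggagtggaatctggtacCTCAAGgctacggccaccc
Sftpb had 2 matches, 100 and 15 bases before the start, Sftpa1 had 1 at 166, and Cd79a had 2 at 176 and 19. On both strands of the full 300-base windows, CTCAAG occurred for 6 of the 15 type 2 genes found in the table, 3 of 17 type 1 genes and 4 of 22 B cell genes, 1 of 7 airway secretory genes and 3 of 24 red cell precursor genes, against 18% of all 27025 genes there. The FOXA letters TGTTTAC occurred for 3 of 15 type 2 genes, 1 of 17 type 1 genes, 1 of 7 airway secretory genes and none of the B cell and red cell precursor genes, against 4.05% of all genes. These are letter matches in short windows and were not tested as binding sites.

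Airway genes were as distinct and varied more between the 3 lungs. Of 11 airway secretory genes tested, 9 were called higher in lung (median 5.68) and none in spleen, and all 24 genes of motile cilia were called higher in lung (median 4.22). Scgb1a1, the secretoglobin of club cells, had the highest mean FPKM of any gene in lung, at 60786, 16047 and 45696 FPKM, with 0, 0 and 0.523 in spleen (17.56 ± 0.54, adjusted p = 1.17e-05). Its lowest lung was mouse 2. Cyp2f2, a club cell cytochrome, had 1463, 335 and 1510.0 in lung and 0, 0.0714 and 0.0593 in spleen (12.66 ± 0.54, adjusted p = 2.35e-05). Scgb3a1, a secretoglobin of the larger airways, had 197, 2.24 and 573 and 0, 0.258 and 0 (8.71 ± 1.85, adjusted p = 0.00785). Lung 2 was again the lowest, and for Scgb3a1 by far. Foxj1, the factor that turns on the program of motile cilia, had 28.99, 4.87 and 28.8 in lung and 0.182, 0.0907 and 0.291 in spleen (5.87 ± 0.40, adjusted p = 0.000111), and lung 2 was lowest there too. The share of airway in each piece of lung was not tested. Of 22 genes for epithelial junctions and keratins, 19 were called higher in lung and 2 in spleen (median 5.83). Cdh1, the adherens junction cadherin, had 63.4, 53.05 and 70.1 in lung and 1.09, 1.02 and 1.06 in spleen (5.74 ± 0.11, adjusted p = 5.78e-06). The members higher in spleen were Pkp3 (6.26, 6.53 and 6.64 in lung, 13.7, 13.8 and 14.2 in spleen) and Cdh3 (0.184, 0.0174 and 0.213 and 0.881, 0.838 and 0.778). With a pseudocount of 1 neither was called, and the Pkp3 call was also lost under TPM and median-of-ratios scaling.

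Most endothelial genes were higher in lung, and the genes set for splenic sinus were mixed. Of 24 pan-endothelial genes, 23 were called higher in lung and none in spleen (median 2.99), as were 17 of 18 lung capillary genes (median 4.90). Cdh5, the junctional cadherin of all endothelium, had 176, 211 and 191 FPKM in lung and 14.3, 14.98 and 14.6 in spleen (3.71 ± 0.07, adjusted p = 5.78e-06). Car4, the carbonic anhydrase of lung capillaries, had 134, 172 and 159 in lung and was listed at 0 in each spleen. Tmem100, an endothelial target of BMP signals, had 369.5, 436 and 413 and 0.945, 0.776 and 0.867 (8.72 ± 0.11, adjusted p = 3.02e-06). Among 12 genes set for splenic sinus endothelium, 5 were called higher in spleen and 2 in lung. The 5 were Stab2, Madcam1, Ackr1, Dnase1l3 and Cd209b, and whether endothelium was their source was not tested. Gpr182, Nr2f2 and Selp were among those not called. Stab2, a scavenger receptor of sinus endothelium, had 0.186, 0.245 and 0.167 in lung and 16.4, 15.3 and 17.1 in spleen (-5.78 ± 0.20, adjusted p = 1.46e-05). Lyve1, named for lymphatic and sinus vessels, stood the other way, at 128, 146 and 149 in lung and 0.800, 0.120 and 0.256 in spleen (8.41 ± 0.41, adjusted p = 3.47e-05). Of the 7 lymphatic genes, 4 were called higher in lung and 2 in spleen, and none in spleen with a pseudocount of 1. Pdpn, among the 4, was also in the type 1 cell list.

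Stroma and matrix also parted, with lung fibroblast genes in lung (16 of 18 called, 1 in spleen, median 3.06) and lymphoid stroma genes in spleen (12 of 15, 2 in lung, median -2.49). Inmt, a methyltransferase abundant in lung fibroblasts, had 1627, 2536 and 2010.0 FPKM in lung and 3.64, 1.07 and 1.29 in spleen (10.11 ± 0.43, adjusted p = 2.25e-05). Tcf21, a mesenchymal factor that both organs need to form, had 62.5, 89.7 and 73.3 and 64.7, 54.4 and 53.95 (0.37 ± 0.15, adjusted p = 0.0736) and was not called. The lung and spleen ranges of Tcf21 overlapped, whereas those of Inmt lay far apart. Cxcl13, which draws B cells into follicles, had 2.57, 3.42 and 3.58 in lung and 204, 215 and 188 in spleen (-5.96 ± 0.12, adjusted p = 5.89e-06). Ccl19, a chemokine of the T cell zone, had 0.630, 1.04 and 0.292 and 79.9, 107 and 77.96 (-6.99 ± 0.22, adjusted p = 1.25e-05). Madcam1, an adhesion molecule of the marginal sinus, had 0, 0 and 0.0932 and 16.2, 19.4 and 14.99 (-7.08 ± 0.32, adjusted p = 2.68e-05). The spleen libraries were above the lung libraries for each of these 3. Coch, which encodes the secreted protein cochlin, had the largest spleen difference of any gene with a value above 0 in lung: 0.298, 0.199 and 0.266 FPKM in lung and 636, 573 and 550.1 in spleen (-10.70 ± 0.10, adjusted p = 1.04e-06). Of 35 collagen chains 18 were called higher in lung and 4 in spleen (7 in spleen under quantile normalization, 2 with a pseudocount of 1), and of 28 elastic fibre and basement membrane genes 22 were higher in lung (median 2.17). Col4a1, a basement membrane chain, had 103, 119 and 107 in lung and 27.7, 27.97 and 24.3 in spleen (2.04 ± 0.08, adjusted p = 1.94e-05). Of 18 smooth muscle genes 8 were called higher in lung and 1 in spleen. Acta2 varied within lung (174, 90.1 and 23.8), lowest in mouse 3, and did not pass (-0.80 ± 0.48, adjusted p = 0.183). Of 11 mesothelial genes, 8 were higher in lung and Wt1, also a spleen factor, was higher in spleen at 5.84, 5.52 and 5.80 against 0.244, 0.0395 and 0.279.

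Most macrophage genes that were called followed their organ's macrophage type. Of 20 genes set for alveolar macrophages, 13 were called higher in lung and 2 in spleen (median 2.16). Car4, with the largest difference of that list, was also in the lung capillary list, and cell source was not tested. Of 19 genes for red pulp macrophages and iron recycling, 13 were higher in spleen and none in lung (median -2.01). Chil3, a chitinase-like protein of alveolar macrophages, had 402, 426 and 411 FPKM in lung and 24.1, 20.4 and 14.7 in spleen (4.41 ± 0.15, adjusted p = 1.37e-05). Spic, the factor that sets up red pulp macrophages, had 0.279, 0.117 and 0.365 and 55.3, 46.6 and 60.02 (-7.32 ± 0.19, adjusted p = 8.86e-06). Slc40a1, the iron exporter ferroportin, had 8.26, 8.40 and 9.17 and 230.2, 172 and 268 (-4.66 ± 0.12, adjusted p = 8.25e-06). Spleens exceeded lungs in all 3 mice for Spic and Slc40a1. Cd5l, a secreted protein of macrophages, had 0.0245, 0.187 and 0 in lung and 88.2, 61.6 and 89.2 in spleen (-9.01 ± 0.41, adjusted p = 2.82e-05). The alveolar macrophage markers Marco (4.39, 4.58 and 6.09 in lung, 85.1, 75.3 and 77.9 in spleen) and Itgax (13.5, 14.6 and 14.99 and 29.4, 31.4 and 30.1), were higher in spleen, where marginal zone macrophages and dendritic cells also carry them. The Itgax call was lost under TPM, median-of-ratios scaling and quantile normalization, and the Marco call was kept. The ferritin genes Fth1 (0.45 ± 0.21, adjusted p = 0.105) and Ftl1 (-0.50 ± 0.24, adjusted p = 0.11) were not called. Dendritic cell genes were higher in spleen for 8 of 16 and in lung for 1, Ccl17, and monocyte genes were higher in spleen for 8 of 12.

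Complement genes went both ways, 8 of 27 higher in each tissue (5 in lung and 8 in spleen with a pseudocount of 1). The 3 chains of C1q were higher in spleen, with C1qb at 29.8, 29.3 and 29.4 in lung and 228, 187 and 213 in spleen (-2.82 ± 0.08, adjusted p = 1.08e-05), and so was Cfp, the alternative pathway stabilizer properdin (-3.66 ± 0.10, adjusted p = 1.03e-05). Serping1, the inhibitor of C1, was higher in lung at 329.5, 325 and 341 against 139.9, 141 and 117 (1.33 ± 0.11, adjusted p = 0.000186). Of 19 neutrophil genes, 7 were called higher in spleen and 1 in lung. The calprotectin gene S100a9 had 195, 176 and 199.5 in lung and 178, 165 and 194 in spleen (0.09 ± 0.08, adjusted p = 0.373), and its ranges overlapped. Ngp, stored in granules as neutrophils mature, had 1.80, 1.65 and 2.69 and 52.9, 43.8 and 16.7 (-4.01 ± 0.44, adjusted p = 0.000622). Toll-like receptor genes were called higher in spleen for 6 of 12, and none in lung.

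**Figure D3:**
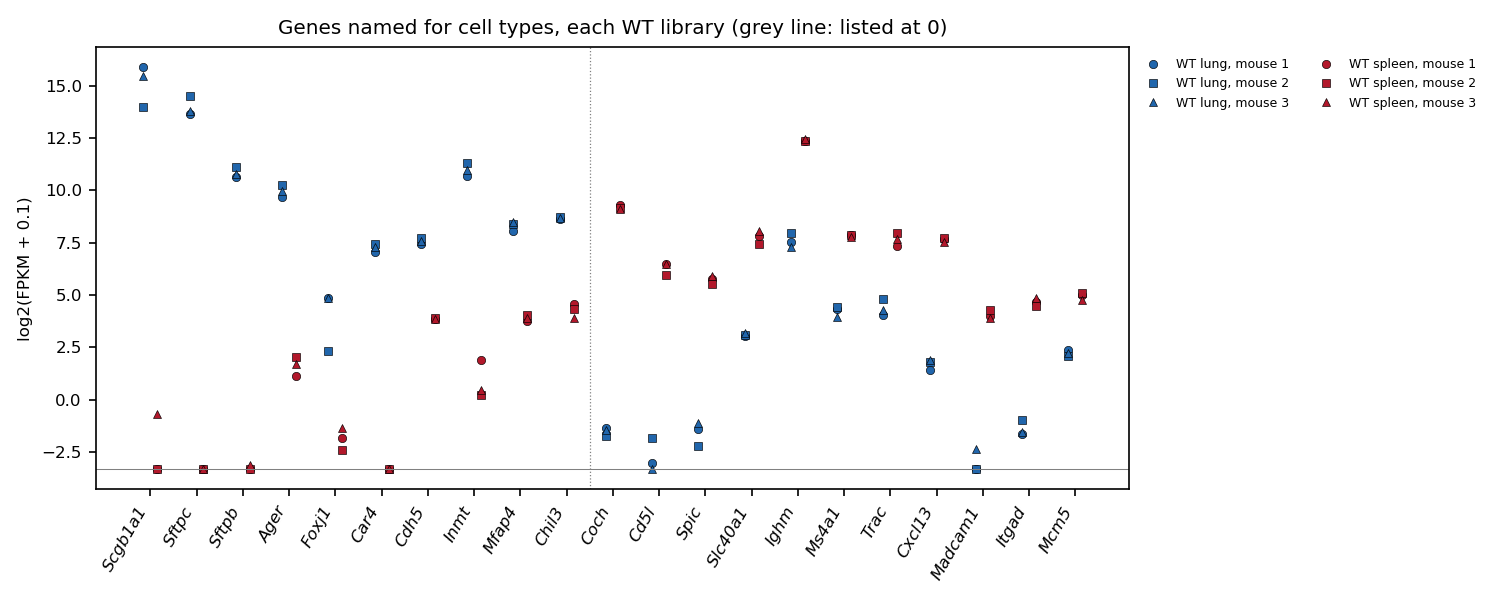
Each marker gives log2(FPKM + 0.1) of a named gene in 1 WT library (blue lung, red spleen; shape marks the mouse), left of the dotted line for genes of lung cell types and right of it for genes of spleen cell types. The grey line is where a gene is listed at 0. Lung and spleen points are parted for every gene, and mouse 2 is the lowest lung for Scgb1a1 and Foxj1.

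Immunoglobulin and T cell receptor genes were called higher in spleen for 391 of 408 tested and in lung for none. Of 27 B cell identity genes, 25 were called higher in spleen and none in lung (median -3.26). Ms4a1, which encodes CD20, had 19.99, 21.6 and 15.4 FPKM in lung and 238, 232 and 216 in spleen (-3.59 ± 0.09, adjusted p = 9.04e-06). Cd79a, the receptor subunit whose promoter is shown above, had 63.8, 85.9 and 48.1 and 630.0, 595 and 634 (-3.27 ± 0.18, adjusted p = 5.34e-05). The lung of mouse 2 was the highest of the lungs for both and still below every spleen. All 11 immunoglobulin constant genes tested were called higher in spleen (median -4.47), as were all 101 heavy chain variable genes tested (-4.72) and 96 of 98 kappa and lambda variable genes (-4.30). Variable genes share sequence, so reads between near copies can be split by the counting. Ighm, the chain of IgM, had 187, 254 and 159.6 in lung and 5244, 5343 and 5626 in spleen (-4.78 ± 0.21, adjusted p = 2.38e-05). Igha, of IgA, had the smallest difference but one among the constant genes, at 19.4, 23.7 and 64.5 and 209.9, 195 and 338 (-2.95 ± 0.20, adjusted p = 9.81e-05). Ighd, of IgD, had the smallest, 93.3, 126 and 86.6 and 692, 726 and 711 (-2.82 ± 0.13, adjusted p = 2.81e-05). Lung libraries stayed below spleen libraries for all of these chains, and lung 3 was the highest lung for Igha but not for the IgM and IgD chains. Jchain, which joins secreted IgA and IgM, had 3.92, 4.22 and 14.2 in lung and 679.5, 667 and 771 in spleen (-6.81 ± 0.33, adjusted p = 3.29e-05). Plasma cell genes were less uniform, with 7 of 13 higher in spleen and 1, the syndecan gene Sdc1, higher in lung at 64.7, 75.1 and 74.6 against 6.78, 6.84 and 6.77. Sdc1 is also made by epithelia, and its cell source was not tested.

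All 30 T cell genes were called higher in spleen (median -2.65), with 156 of 168 T cell receptor segments (-2.79; 84 with a pseudocount of 1) and 12 of 19 NK and cytotoxic genes. Trac, the constant part of the receptor α chain, had 16.7, 28.5 and 19.2 FPKM in lung and 164, 249 and 208 in spleen (-3.28 ± 0.09, adjusted p = 9.04e-06). Lck, the kinase that starts receptor signalling, had 10.6, 15.3 and 10.4 and 80.5, 113 and 96.97 (-2.998 ± 0.09, adjusted p = 1.17e-05). The smallest spleen value was above the largest lung value for both genes. Gzma, a granzyme of NK cells, had 25.5, 35.99 and 25.8 in lung and 34.5, 30.3 and 42.7 in spleen (-0.30 ± 0.19, adjusted p = 0.194), with overlapping ranges.

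MHC class II presentation was higher in spleen for 12 of 12 genes (median -2.41), and MHC class I for 8 of 16 with none higher in lung. Cd74, the class II invariant chain, had 1052, 1393 and 1064 FPKM in lung and 5226, 5269 and 5255 in spleen (-2.18 ± 0.26, adjusted p = 0.000899). B2m, the light chain of class I, had 1541, 1824 and 1683 and 2719, 2760.0 and 2652 (-0.69 ± 0.24, adjusted p = 0.0423), within the fold limit. Of 15 genes of CD40 and BAFF family costimulation, 13 were called higher in spleen and 1 in lung (median -2.47). Cd40, a receptor on B cells and other antigen-presenting cells, had 15.5, 14.7 and 11.98 in lung and 42.01, 41.1 and 37.7 in spleen (-1.52 ± 0.08, adjusted p = 4.45e-05). Its ligand Cd40lg, made by activated T cells, had 0.736, 0.992 and 0.533 and 5.76, 7.50 and 4.97 (-2.87 ± 0.18, adjusted p = 7.84e-05). The spleen was higher than the lung for receptor and ligand in each mouse. Tnfsf13b, the B cell survival factor BAFF, was the one higher in lung, at 11.8, 12.5 and 12.1 against 4.31, 8.57 and 5.01 (1.07 ± 0.19, adjusted p = 0.004), a call that was lost without mouse 1 or mouse 3 and without spleen 1 or spleen 3.

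Integrins are α and β subunits that pair into receptors for matrix and other cells, and 11 of 26 were called higher in lung and 9 in spleen. Itgb3, the gene deleted in the b3 KO mice, had 3.68, 4.39 and 4.14 FPKM in WT lung and 10.6, 8.95 and 8.50 in WT spleen (-1.18 ± 0.15, adjusted p = 0.00105), so spleen was the higher tissue. Among the b3 KO libraries it had 1.94, 1.34 and 1.29 in lung and 3.57, 4.02 and 3.52 in spleen, lower than WT in both tissues and not 0. Itgad, the αD subunit of red pulp macrophages in the mouse, had 0.224, 0.411 and 0.243 in lung and 25.1, 22.4 and 28.7 in spleen (-6.04 ± 0.23, adjusted p = 1.82e-05). Itga3, a laminin receptor subunit of epithelium, had 47.00, 58.4 and 54.2 and 4.43, 3.07 and 3.65 (3.81 ± 0.17, adjusted p = 2.45e-05). Each of these 2 was parted between the tissues in all 3 mice, in opposite directions. Itgb1, which pairs with many α subunits, had 203, 222 and 230.4 in lung and 91.7, 91.5 and 91.6 in spleen (1.25 ± 0.08, adjusted p = 9.21e-05). Leukocyte subunits Itgb2 (-1.53 ± 0.09, adjusted p = 6.69e-05) and Itgb7 (-2.01 ± 0.09, adjusted p = 2.69e-05) were higher in spleen.

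Chemokine ligands split 10 higher in lung and 11 in spleen of 35 (7 and 13 under quantile normalization), while receptors leaned to spleen, 14 of 23 against 3. Among those higher in lung, Cxcl14 stood at 115, 148 and 104 FPKM in lung and 0, 0.146 and 0.0243 in spleen (9.70 ± 0.21, adjusted p = 6.48e-06) and Cxcl15, made by mouse lung epithelium, at 262, 384 and 356 in lung and listed at 0 in each spleen. Ccl21a, a T zone ligand of CCR7, had 91.2, 86.1 and 81.00 and 403, 633 and 441 (-2.49 ± 0.15, adjusted p = 7.47e-05). Cxcl12, a ligand of CXCR4, had 60.7, 49.1 and 58.05 in lung and 303, 276 and 284 in spleen (-2.36 ± 0.08, adjusted p = 1.47e-05). Among receptors, Ccr3, carried by eosinophils, stood at 3.01, 1.38 and 2.89 and 18.6, 15.1 and 19.7 (-2.89 ± 0.18, adjusted p = 7.85e-05). The eosinophil granule gene Prg2 was also higher in spleen, at 0.0576, 0 and 0 and 18.5, 18.8 and 14.8 (-7.22 ± 0.24, adjusted p = 1.31e-05).

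Red cell precursor genes were higher in spleen for 18 of 36 and in lung for 1 (median -1.54). Leaving out one library at a time gave 14 to 20 genes higher in spleen, and 3 higher in lung without spleen 1. The α globin gene Hba-a1 had 1365, 1845 and 1188 FPKM in lung and 7529, 1844 and 5686 in spleen (-1.57 ± 0.54, adjusted p = 0.0434). Spleen 2 lay within the lung range, and the Hba-a1 call was lost in 6 of the leave-out fits. With all libraries kept, it was also lost under TPM, median-of-ratios scaling and quantile normalization, without the filter and without the limma trend. Hbb-bs, a β globin, had 2187, 2947 and 1993 in lung and 11827, 3085 and 8394 in spleen (-1.52 ± 0.56, adjusted p = 0.0519) and was not called. Alas2, the first enzyme of heme synthesis in red cells, had 17.4, 21.1 and 15.9 and 136, 29.4 and 73.5 (-1.88 ± 0.45, adjusted p = 0.0125), a call lost without mouse 3. Car1, a red cell carbonic anhydrase, had 0, 0.128 and 0.110 and 44.2, 4.90 and 9.58 (-6.26 ± 0.82, adjusted p = 0.00119), and spleen 1 was the highest of the 3 for each of these 4. Tmod1, an actin capping protein, was the one higher in lung, where it is not limited to red cells: 24.1, 30.7 and 33.8 against 4.91, 1.31 and 0.900 (3.93 ± 0.53, adjusted p = 0.00133).

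The promoters of Alas2 and Hbb-bs are shown because GATA1, the main factor of red cell precursors, binds sites holding AGATAA. The capitals mark exact matches of AGATAA, or of its reverse complement TTATCT, in the 250 bases before the RefSeq start. Alas2 lies at chrX:149330163-149330412 on the plus strand and Hbb-bs at chr7:103477136-103477385 on the minus strand (GRCm39, windows from RefSeq GRCm38.p6).
Alas2: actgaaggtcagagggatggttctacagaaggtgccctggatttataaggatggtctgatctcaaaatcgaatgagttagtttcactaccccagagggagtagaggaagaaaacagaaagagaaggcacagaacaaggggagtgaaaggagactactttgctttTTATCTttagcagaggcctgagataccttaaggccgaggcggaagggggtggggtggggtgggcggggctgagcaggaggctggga
Hbb-bs: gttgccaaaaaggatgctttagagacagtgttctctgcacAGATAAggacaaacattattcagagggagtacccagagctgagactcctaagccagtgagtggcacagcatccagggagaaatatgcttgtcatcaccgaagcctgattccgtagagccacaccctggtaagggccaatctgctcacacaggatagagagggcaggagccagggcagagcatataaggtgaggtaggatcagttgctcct
Alas2 had 1 match, 86 bases before the start on the opposite strand, and Hbb-bs had 1 match at 210 on the gene's strand. AGATAA occurred on either strand for 9 of 24 red cell precursor genes found in the table, 2 of 15 type 2 genes, 3 of 17 type 1 genes, 1 of 7 airway secretory genes and 2 of 22 B cell genes, against 12.7% of all genes there. The octamer ATTTGCAT, of the factors OCT1 and OCT2, occurred for 1 of 22 B cell genes, 1 of 15 type 2 genes, 1 of 7 airway secretory genes and none of the type 1 and red cell precursor genes, against 1.97% of all genes.

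Megakaryocyte and platelet genes were higher in spleen for 15 of 20 and in lung for 4. Ppbp, the precursor of a platelet chemokine, had 14.6, 15.6 and 18.1 FPKM in lung and 111, 74.8 and 63.2 in spleen (-2.32 ± 0.21, adjusted p = 0.000284). Pf4, the platelet factor, had 17.4, 20.9 and 17.99 and 41.8, 33.2 and 33.3 (-0.94 ± 0.13, adjusted p = 0.00138) and stayed within the fold limit. The 4 higher in lung included Vwf at 47.05, 43.5 and 40.3 against 2.99, 2.07 and 2.33 and Thbs1 at 48.9, 61.1 and 36.5 against 12.5, 8.27 and 7.08, both made by cells of vessel walls too. Of 10 stem and progenitor genes, 6 were higher in lung and 2 in spleen. Several of the lung ones are also endothelial, such as Cd34 at 88.2, 96.95 and 95.5 in lung and 11.9, 12.01 and 9.62 in spleen (3.06 ± 0.10, adjusted p = 1.31e-05).

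Genes of growth and translation were higher in spleen. Of 39 cell cycle and replication genes, 38 were called higher in spleen and none in lung (median -2.25). Mcm5, part of the replicative helicase, had 5.09, 4.13 and 4.61 FPKM in lung and 31.9, 33.9 and 26.9 in spleen (-2.72 ± 0.12, adjusted p = 2.71e-05). Rrm2, which makes deoxyribonucleotides, had 3.88, 2.89 and 4.38 and 42.5, 30.9 and 23.8 (-3.07 ± 0.22, adjusted p = 0.000122). Both genes were parted in every mouse. Of 76 cytosolic ribosomal protein genes, 74 were called higher in spleen (median -1.57), but 35 under quantile normalization. Rpl13a had 712, 937 and 743 in lung and 2647, 2678 and 2650.0 in spleen (-1.75 ± 0.20, adjusted p = 0.000743). Of 78 nuclear genes of oxidative phosphorylation, 1 was called, in spleen (median -0.21). Of 13 mitochondrially encoded proteins, 4 were called higher in lung (10 under quantile normalization), the largest mt-Nd2 at 2196, 1943 and 2255 against 624, 674 and 801 (1.61 ± 0.18, adjusted p = 0.000699). Of 54 clustered histone genes, 25 were called higher in spleen and 2 in lung. The histone count in spleen was 4 with a pseudocount of 1 and 15 without lung 3, spleen 1 or spleen 2, and the count in lung was 5 without lung 3.

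Patterning factors, which give an organ its place in the embryo, were still transcribed in the adult tissues and differed between them. Of 22 factors set for lung, 21 were called higher in lung (median 6.07). Nkx2-1 had 57.5, 62.7 and 50.9 FPKM in lung, Irx1 had 37.7, 45.1 and 41.1, and both were listed at 0 in each spleen. Foxf1, a mesenchymal and capillary factor, had 123, 167 and 172 in lung and 1.44, 1.61 and 1.07 in spleen (6.71 ± 0.18, adjusted p = 9.04e-06). Of 10 factors set for spleen, 6 were called higher in spleen and 2, Lhx6 among them, in lung. Tlx1 had 27.2, 21.9 and 19.4 in spleen and Nr5a1, needed for splenic vessels, had 6.38, 5.71 and 5.58, both listed at 0 in each lung. Nkx2-3, needed for the splenic sinus and marginal zone, had 10.8, 9.24 and 9.70 in spleen and was likewise listed at 0 in lung.

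**Figure D4:**
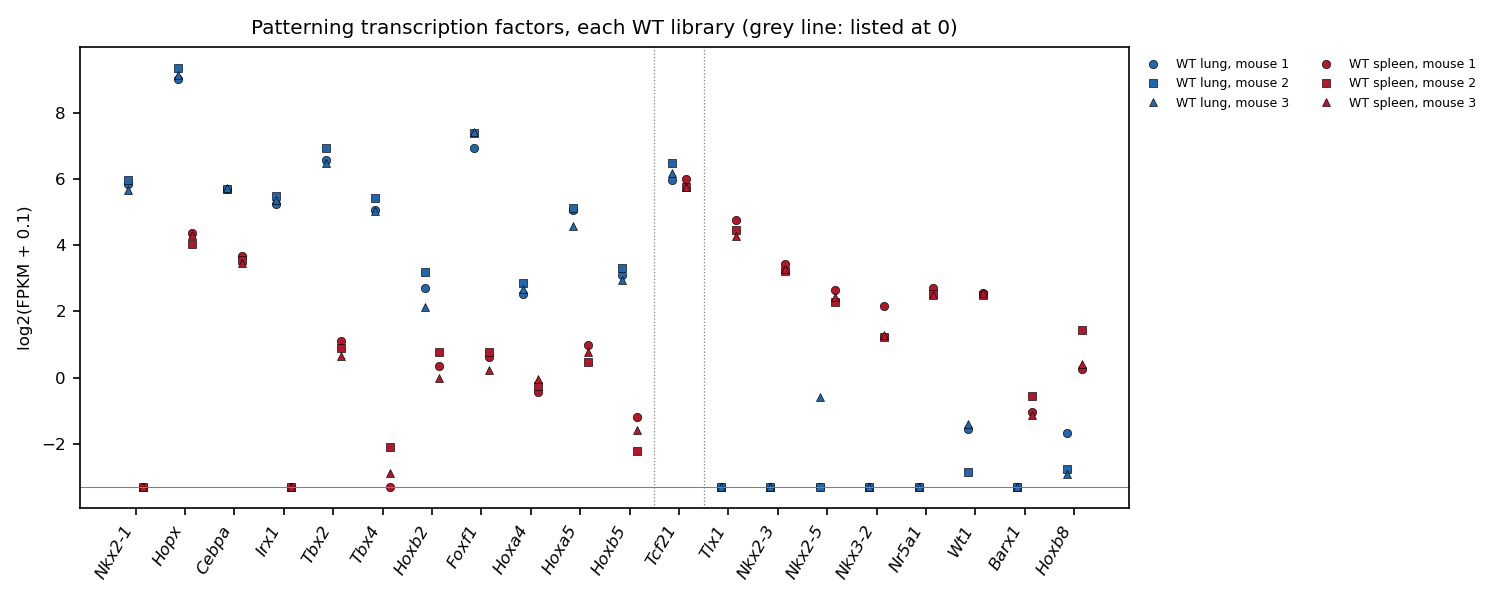
Log2(FPKM + 0.1) of patterning factors in each WT library (blue lung, red spleen; shape marks the mouse). Left of the first dotted line are factors higher in lung, between the lines is Tcf21, not called, and to the right the factors higher in spleen, with Barx1, Tlx1, Nkx2-3, Nr5a1 and Nkx3-2 at the line of genes listed at 0 in all 3 lungs.

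Hox genes, arranged along chromosomes in the order of the body axis, showed 12 of 17 higher in lung and 2 in spleen (median 2.00). Hoxa5, needed for lung form, had 33.6, 34.98 and 23.7 FPKM in lung and 1.88, 1.29 and 1.60 in spleen (4.19 ± 0.18, adjusted p = 2.54e-05), and Hoxb5 had 8.53, 9.79 and 7.65 and 0.334, 0.113 and 0.232 (4.80 ± 0.30, adjusted p = 7.93e-05). The 2 higher in spleen were of more posterior number: Hoxb8 at 0.216, 0.0475 and 0.0319 in lung and 1.09, 2.62 and 1.23 in spleen (-3.15 ± 0.49, adjusted p = 0.00234), and Hoxb9, listed at 0 in each lung and 0.190, 0.260 and 0.375 in spleen. Hematopoietic factors were higher in spleen for 26 of 31 with none in lung (median -2.45), among them Ikzf1, a lymphoid factor, at 12.5, 13.2 and 11.4 against 93.3, 99.1 and 109 (-3.01 ± 0.10, adjusted p = 1.3e-05).

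Signalling families were mostly higher in lung. Of 13 Wnt ligands 9 were called higher in lung and 2 in spleen, of 16 FGF genes 12 and 2, of 23 BMP genes 16 and 2, of 14 Notch genes 8 and 2, and of 49 semaphorin and ephrin genes 29 and 3 (7 in spleen under quantile normalization, 5 without lung 1). Wnt3a, a canonical ligand, had 6.60, 8.48 and 8.16 FPKM in lung and was listed at 0 in each spleen. Fgfr2, the receptor of the airway epithelium, had 47.9, 51.5 and 52.1 in lung and 1.30, 1.72 and 1.09 in spleen (5.12 ± 0.15, adjusted p = 1.04e-05). Bmpr2, the type II receptor mutated in familial pulmonary hypertension, had 65.7, 71.5 and 72.5 and 2.96, 2.89 and 3.08 (4.51 ± 0.08, adjusted p = 4.96e-06). These ligands and receptors were low or at 0 in every spleen. Dll4, an endothelial Notch ligand, had 23.9, 36.4 and 23.4 in lung and 2.22, 2.63 and 1.65 in spleen (3.62 ± 0.13, adjusted p = 1.47e-05). The spleen held some members of its own. Wnt10a was listed at 0 in lung and had 1.18, 1.07 and 0.710 in spleen, and Grem1, a BMP inhibitor, had 0.209, 0.190 and 0.221 and 2.04, 3.68 and 1.87 (-3.04 ± 0.31, adjusted p = 0.000486). With a pseudocount of 1 no Wnt ligand was called higher in spleen, Wnt10a included, and none was in b3 KO. Sema4d, of lymphocytes, was higher in spleen at 58.4, 65.5 and 67.9 against 10.9, 14.8 and 12.8 (-2.32 ± 0.09, adjusted p = 1.73e-05).

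Transport and metabolism genes of the epithelium and vessels were higher in lung. Of 27 vasoactive genes 21 were called higher in lung and none in spleen (median 2.85), of 18 ion and water transport genes 16 and 1 (3.78), of 16 claudins 12 and 1, and of 25 drug metabolism genes 23 and 1 (3.94). Ace, the converting enzyme that makes angiotensin II, had 216, 252 and 235 FPKM in lung and 10.2, 7.85 and 9.14 in spleen (4.69 ± 0.12, adjusted p = 9.04e-06). Scnn1b, a subunit of the epithelial sodium channel, had 40.4, 26.8 and 39.9 and was listed at 0 in spleen. Cbr2, a carbonyl reductase of lung, had 4298, 3076 and 4685 in lung and 2.84, 2.19 and 3.22 in spleen (10.46 ± 0.07, adjusted p = 1.04e-06). None of these 3 had a spleen library near its lung libraries. The one drug metabolism gene higher in spleen was the cytochrome Cyp1b1, at 22.02, 19.6 and 16.1 against 3.27, 0.954 and 3.26 (-3.07 ± 0.38, adjusted p = 0.000929). Clock genes leaned to lung, 10 of 16 against 1, and the one, the activator Bmal1, was opposite: 2.005, 1.61 and 1.22 in lung and 7.25, 8.73 and 8.14 in spleen (-2.27 ± 0.21, adjusted p = 0.000304). Nr1d1, which Bmal1 drives and which represses it, had 22.9, 46.5 and 37.1 and 9.64, 12.1 and 9.65 (1.70 ± 0.16, adjusted p = 0.000329).

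**Figure D5:**
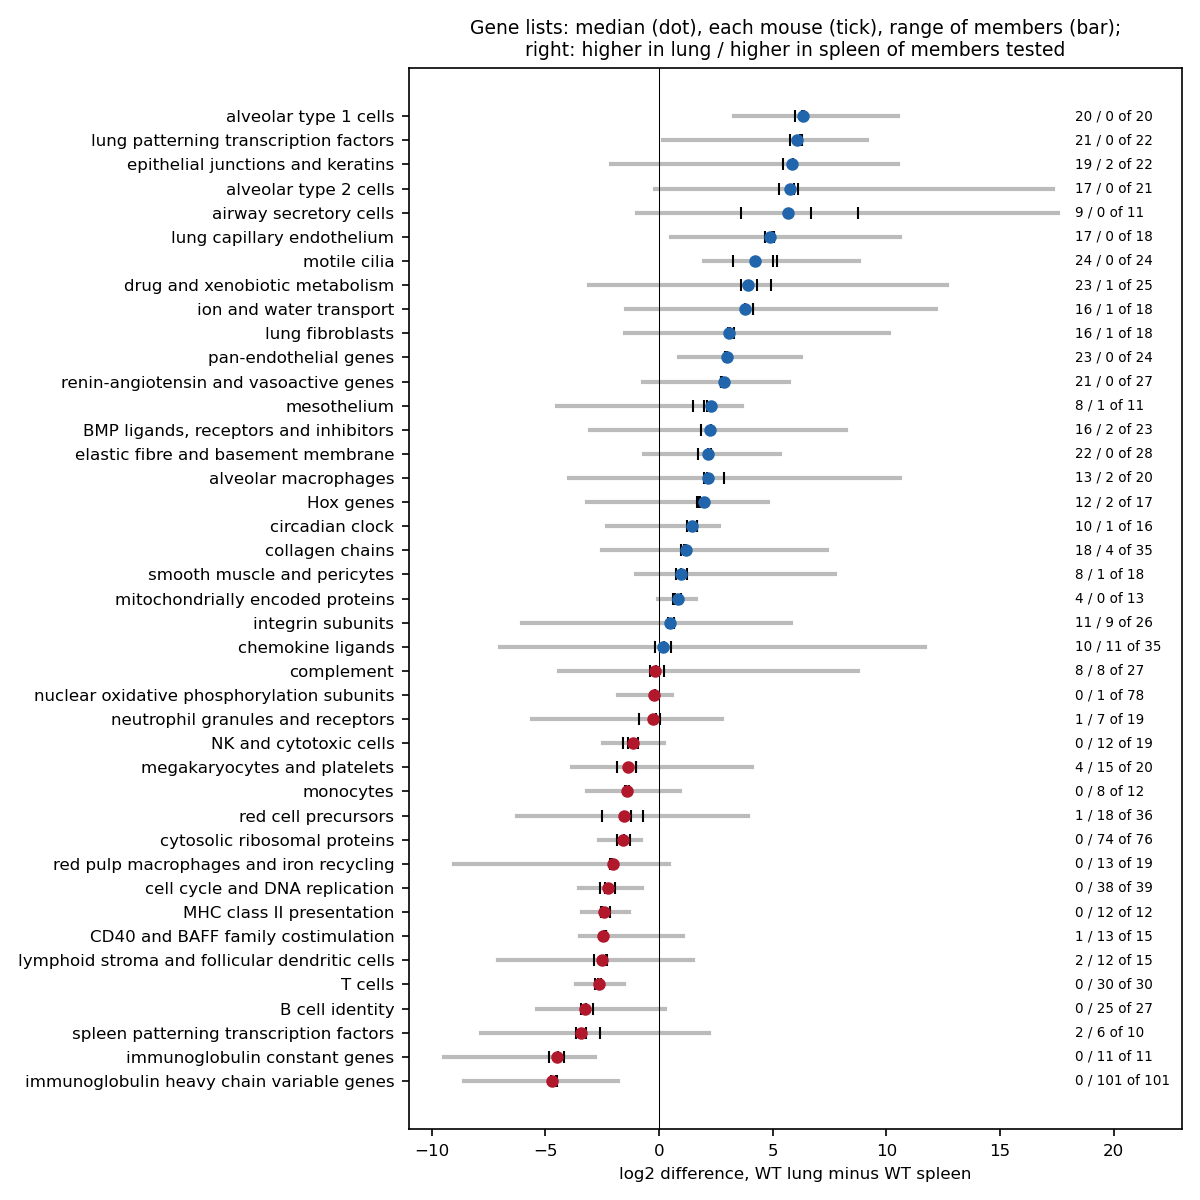
For each of 41 gene lists, the dot is the median log2 difference (lung minus spleen) of its tested members, the ticks are the medians in mice 1, 2 and 3, and the grey bar runs from the lowest to the highest member. Figures at the right count members called higher in lung and in spleen of those tested; alveolar type 1 cells (20 of 20 in lung) head the plot and immunoglobulin heavy chain variable genes (101 of 101 in spleen) close it.

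The same comparison was made in the b3 KO mice, whose libraries played no part in the WT calls. It gave 3625 genes higher in lung (22.9%) and 2692 higher in spleen (17%). This comparison, and the test of the difference given below, used only the genes kept by their WT levels. Genes under that limit in WT could not be called, which can raise the shares of b3 KO calls also found in WT. Of the genes called higher in WT lung, 3212 (87.9%) were called in the same direction in b3 KO, which is 88.6% of the b3 KO lung calls, and of the spleen ones 2280 (74.8% of the WT calls, 84.7% of the b3 KO calls). The opposite call was found for 3 of the lung genes and 1 of the spleen genes. Red cell precursors showed 34 of 36 higher in spleen in b3 KO (median -3.59) against 18 in WT. The difference between the tissue differences was tested in all 12 libraries and 24 genes (0.152%) passed, among them 5 immunoglobulin or T cell receptor segments and 2 red cell precursor genes. Leaving out a mouse gave 70 genes without WT mouse 1 and 3 without WT mouse 3. The Y-linked gene Ddx3y had 16.9 to 25.2 FPKM in the WT libraries and was listed at 0 in all 6 b3 KO libraries, so sex, stock and genotype cannot be told apart in that contrast.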

How the data were processed

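Lungs and spleens came from the same 3 WT and 3 b3 KO mice. The sources name Trimmomatic, HISAT2 and featureCounts on GRCm39. The deposited FPKM values were made by the authors in separate lung and spleen tables, with a tool not given in the sources used here. Labels name a Qiagen kit for RNA, the methods TRIzol. Genes were joined by Ensembl ID (22105 of 22116; symbols from GENCODE release 39). Genes with an FPKM of 0.1 or more in at least 3 of 6 WT libraries were kept, log2(FPKM + 0.1) was taken and fitted with limma 3.58.1 in R 4.3.3 (trend, mouse as block, Benjamini-Hochberg). Same-mouse deviations correlated at 0.016, 0.096 and 0.063, and those of different mice at -0.103 to 0.060. The methods say that lung and spleen came from the same mice. Pairing by number was taken from the sample titles. On simulated data, 48 of 50 genes changed by 4 on the log2 scale were called, 37 of 50 at 1.5, and 7 of 15615 unchanged ones. Few genes were changed there, none of low mean level, and the spread between mice was set by hand. In the real comparison 42.4% of genes were called, so the simulated figures do not give its error rates. Whole reads could not be recovered, so no count test was run. The named genes were the largest differences, the most abundant genes and the leading members of each list; the comparison, the lists and this rule were chosen with earlier results of these data known. Separate animals are the replicates, so the error covers animal and library together. Alternatives were other pseudocounts, filters, scalings, thresholds, blocks and left-out libraries. One gene is not reported here.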

Additional observations from a re-analysis of the deposited data

Results flagged for a closer look

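The lung-to-spleen difference was not the same in b3 KO and WT mice for 24 genes by the test of that difference (b3 KO minus WT, log2; limma adjusted p 0.00483 to 0.0498). Among genes of early B cells, Igll1, a surrogate light chain, stood at 7.43 and its partners Vpreb1a and Vpreb1b at 7.09 and 4.32. The WT spleens held 34.2, 32.7 and 21.6 FPKM of Igll1 and the b3 KO spleens at most 0.0632. Among antibody and T cell receptor genes, Jchain stood at 3.24, Iglv1 at 1.60, Ighj2 at 1.90, Igkv4-53 at 2.20, Iglj2 at -2.24 and Traj18 at 5.06. Genes of the T cell surface and its signals were Thy1 at 1.12 and Sh2d2a at 1.47. The red cell genes Slc25a37, an iron importer of mitochondria, and Xpo7 stood at -2.19 and -2.02. The myeloid receptors Mrc1 and Fpr1 stood at -1.13 and -2.05. The rest were Umod (4.85), Tmem132e (4.28), Rps18-ps6 (3.15), Acsbg1 (2.13), Tnfrsf19 (1.80), Ddit4 (1.14), Cpeb4 (-1.39), Aldh1a1 (-1.94) and Specc1 (-2.35). Rps18-ps6 is named as a pseudogene copy of a ribosomal protein gene but is annotated as protein coding. Its reads may be shared with near copies, which was not tested. Leaving out each of the 6 mice in turn kept the call in 6 of 6 fits for Igll1 and Rps18-ps6, 5 for Vpreb1a, 3 for Traj18 and at most 2 for each of the others. All but 5 of these genes (Aldh1a1, Igll1, Iglv1, Jchain and Mrc1) fall outside the rule for named genes and are named because the test called them. Only genes kept by their WT levels were tested, so a gene under that limit in WT could not be among the 24. Sex and mouse source cannot be told apart from genotype here.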

How the results depend on the processing

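The WT calls (3653 higher in lung, 3050 in spleen) changed most with the fold limit: a log2 limit of 2 gave 2116 and 1367, and no fold limit gave 6055 in spleen. Leaving out a mouse or library gave 3355 to 3772 in lung and 2882 to 3036 in spleen, with 6106 of 6703 calls kept without mouse 3. Without the mouse as a block there were 3661 and 3040, with 6658 of 6703 calls kept. The list counts that moved by over 1.5 times without the block were those in spleen of type 2 immunity, Wnt ligands and skeletal muscle (2 to 1 each) and nuclear oxidative phosphorylation (1 to 0), and that in lung of cardiac muscle (2 to 1). TPM, median-of-ratios and quantile scaling shifted the median by 0.12, 0.11 and -0.07, and the share of calls higher in lung was 59.1%, 58.7% and 48.6%, against 54.5%. In b3 KO, leave-outs gave 3434 to 3676 and 2441 to 2761. The test of the difference between genotypes was the least stable: 64 genes without the replicate block, and 3 to 70 with a mouse left out (70 without WT mouse 1, 3 without WT mouse 3), with 2 genes, Igll1 and Rps18-ps6, kept in every one. Without mouse 2 or without its spleen, the pancreas genes reversed: Cela2a 2.29 and 2.91 (leave-outs -2.72 to 2.91), Ctrb1 2.53 and 2.995 (-1.85 to 2.995), Pnlip 2.19 and 2.69 (-2.40 to 2.69), Try4 2.79 without the spleen (-2.88 to 2.79), and the list median 0.92 and 1.65 (-2.80 to 1.65, main -1.19). The histone list median became 0.31 with genes kept only above 1 FPKM (main -1.08). Adipose genes were called higher in lung for 7 of 7 without spleen 1, against 2. Of 489 named calls, 333 held in every one of the 23 settings that fitted the gene, and none reversed. Immunoglobulin and T cell receptor genes were not fitted in the setting that left them out. Genes under a stricter filter were not fitted there either. The setting with no fold limit used the main fit, so it could not lose or reverse a call. With depth unknown, low genes cannot be given a counting limit.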

Other observations

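Further lists held type 2, stress and interferon genes. Over all tested genes, 23.1% were called higher in lung and 19.3% in spleen, 42.4% together. The share of interferon genes called in either direction was near that of all genes. Of 13 type 2 immunity genes, 7 were called higher in lung and 2 in spleen. Il33, an alarm cytokine of barrier tissue, had 26.9, 35.00 and 43.7 FPKM in lung and 7.55, 11.3 and 9.91 in spleen (1.86 ± 0.12, adjusted p = 7.86e-05), and Areg, a growth factor for epithelium, had 5.01, 6.42 and 3.53 in lung and was listed at 0 in spleen. Il9r, a cytokine receptor, was opposite at 0.745, 0.899 and 0.938 and 13.8, 8.38 and 13.1 (-3.60 ± 0.22, adjusted p = 7.81e-05). Of 25 interferon-stimulated genes 3 were higher in lung and 8 in spleen, with Irf7 at 12.9, 13.2 and 10.2 in lung and 39.5, 35.1 and 27.3 in spleen (-1.48 ± 0.08, adjusted p = 5.32e-05) and Ifit3 at 45.6, 57.3 and 47.95 and 25.1, 16.8 and 16.8 (1.38 ± 0.18, adjusted p = 0.00113). Immediate early and heat shock genes, set as one list, showed 8 of 18 higher in lung and 1 in spleen, and 5 in lung without lung 1 or with a pseudocount of 1.

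Dntt, the enzyme that adds bases at receptor joints, was higher in spleen at 8.10, 13.2 and 9.76 FPKM against 0.188, 0.612 and 0.228 in lung (-4.65 ± 0.22, adjusted p = 3.32e-05). Serpina1b, a protease inhibitor best known from liver, had 0.0438, 0.0117 and 0.0353 in lung and 4.31, 3.37 and 3.14 in spleen (-4.83 ± 0.27, adjusted p = 5.16e-05). Ngfr, the nerve growth factor receptor, had 0.347, 0.200 and 0.270 and 2.85, 4.02 and 2.82 (-3.16 ± 0.30, adjusted p = 0.000338). Actc1, a cardiac actin, had 110.1, 72.00 and 45.7 in lung and 0.274, 0.181 and 0.277 in spleen (7.71 ± 0.27, adjusted p = 1.49e-05), and unlike the 8 other cardiac genes tested it was not highest in lung 3.

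Of 18 common reference genes, 4 were called higher in spleen and none in lung (median -0.76). Of 19 pancreas genes 1 was called, in spleen (8 in lung without spleen 2), of 9 cardiac genes 2 in lung, and of 10 liver and plasma protein genes 5 in spleen (2 with a pseudocount of 1) and 1 in lung. Of 20 matrix metalloproteinase genes and their inhibitors 9 were higher in lung and 2 in spleen (4 under quantile normalization), of 9 mast cell and basophil genes 3 were higher in lung, and of 8 germinal centre genes 3 were higher in each tissue.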
